A study of Rattus norvegicus with 47 samples.

Results

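Gene expression in blood was compared between 8 adult male Sprague Dawley rats that reacted with an extreme behavioural response after predator-scent stress and 8 adult male Sprague Dawley control rats that were behaviourally tested without the stress exposure. The 16 arrays were chosen from the sample labels, as all male arrays of these 2 groups, out of 47 arrays in the series. The other groups were 8 males with a minimal response to the same stressor, 8 females with an extreme response, 8 females with a minimal response and 7 female controls. RNA from whole peripheral blood, drawn into tubes that fix RNA at collection and depleted of globin transcripts, was hybridised to Illumina rat bead arrays, 1 array per rat. The labels number the rats individually and do not give the interval between scent exposure and blood draw. Extreme response describes behaviour after the exposure, so the rats were sorted on that behaviour and not assigned to it.

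Predator scent is an innate threat signal for rats and activates the hypothalamic-pituitary-adrenal axis and the sympathetic nerves. Corticosterone, the main glucocorticoid of the rat, binds the glucocorticoid receptor in leukocytes. The receptor then induces genes such as Tsc22d3, Fkbp5, Dusp1 and Anxa1 and restrains NF-kB. Glucocorticoids and adrenaline also change which leukocytes circulate. In whole blood, fewer cells of a type and less RNA per cell cannot be told apart.

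Of 22523 probes, 9416 were detected often enough to be tested, and 6786 of these carried 1 gene symbol. The 95th percentile of raw intensity, a measure of array brightness, ran from 234 to 843 over the extreme response arrays and from 228 to 716 over the control arrays. Transcripts that define blood cells were measured on both groups. The summed level of 8 of 9 listed T cell markers was 12.76 to 13.22 (log2) at extreme response and 12.71 to 13.18 in controls, with Cd5 detected on none of the 16 arrays. The neutrophil sum (9 of 10 markers) was 11.03 to 12.13 at extreme response and 11.26 to 11.97 in controls. The platelet sum (7 of 9) was 14.25 to 15.70 at extreme response and 14.85 to 15.83 in controls, and the erythroid sum (5 of 8) was 15.80 to 16.14 at extreme response and 15.78 to 16.31 in controls. All of these ranges overlapped. Monocyte, B cell, NK cell and granulocyte sums overlapped between the groups too. The sum of 7 skeletal muscle genes, which mark no blood cell, was 7.98 to 10.32 at extreme response and 7.91 to 14.05 in controls, where replicate 2 was the highest.

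No probe passed the test of extreme response against control. At a Benjamini-Hochberg adjusted p below 0.05 in limma, 0 of 9416 probes were called (0%). The lowest adjusted p was 0.0621, shared by 36 probes, and 132 probes lay below 0.1, 72 of them higher and 60 lower at extreme response. An unadjusted p below 0.05 was reached by 1437 probes (15.3%), 733 higher (7.78%) and 704 lower (7.48%). A complete separation of the groups was rare. All 8 extreme response arrays lay above every control array on 3 probes (0.0319%) and below every control array on 4 (0.0425%).

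Partial separation was more frequent. Over all 9416 probes, replicates 1 to 8 at extreme response lay outside the control range on 12.6%, 29.9%, 22.3%, 29.1%, 30%, 48.7%, 31.2% and 13.4% of probes, and control arrays outside the extreme response range on 15.3% to 33.5%. Replicate 2 was thus outside the controls as often as replicates 4 and 5 and more often than replicate 3, with 1265 probes above and 1550 below every control array. Fewer probes had several arrays outside on the same side. At least 5 of the 8 extreme response arrays lay above every control array on 425 probes (4.51%) and below every control array on 320 (3.4%). On 204 of the 425 probes the arrays above the controls were exactly replicates 3, 4, 5, 6 and 7. Taken array by array, replicates 3 to 7 were above the controls on 87.3%, 87.5%, 94.4%, 91.1% and 96.0% of the 425 probes. Replicates 1, 2 and 8 were above them on 29.9%, 23.5% and 21.6%. Among the probes with at least 5 arrays below the controls, the exact set of replicates 3 to 7 was found on 100 of the 320 probes. Replicates 3 to 7 were below the controls there on 82.8% to 93.1% of the probes, and replicates 1, 2 and 8 on 33.4%, 47.2% and 21.6%. These shares hold only for probes selected for having at least 5 arrays outside, and the sets were described after their values were seen. By the share of all probes outside the controls, replicate 2 (29.9%) does not group with 1 and 8 (12.6% and 13.4%). The first principal component over all tested probes, described below, does place the 3 on the same side. Replicates 1, 2 and 8 scored -6.2, -18.7 and -10.4 on it, within the control scores of -18.8 to 3.9. Replicates 3 to 7 scored 8 to 54.6. No test was run between extreme response arrays. Replicates are named by their order in the series, which carries no meaning of its own.

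**Figure D1:**
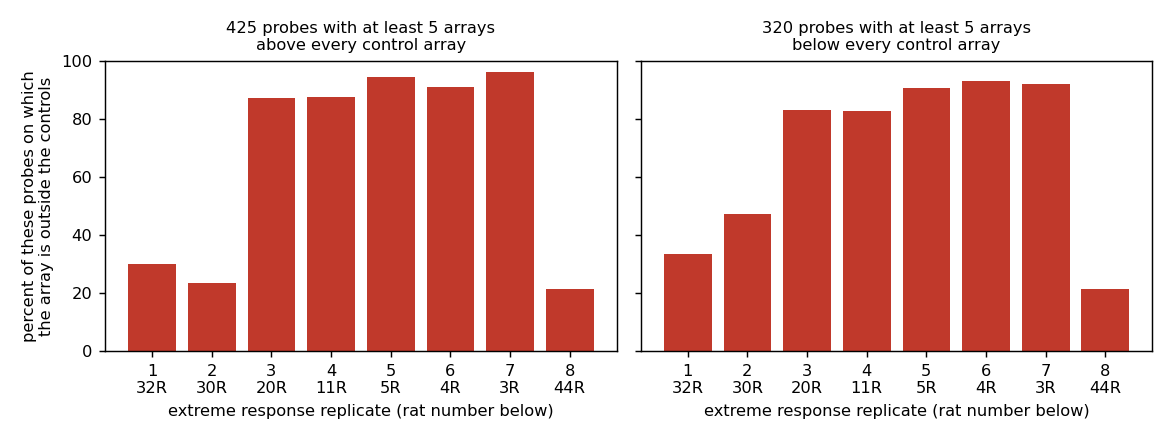
Percent of probes (vertical axis) on which each extreme response array (horizontal axis, with the rat's label beneath) lay outside the range of the 8 control arrays, for the 425 probes with at least 5 arrays above every control array (left) and the 320 probes with at least 5 below (right). Among these selected probes, replicates 3 to 7 are outside the controls on 82.8% or more, and replicates 1, 2 and 8 on 47.2% or fewer.

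The rat numbers in the labels divide the extreme response arrays at the same place as these selected probes. By label, replicates 3 to 7 are rats 20, 11, 5, 4 and 3, and replicates 1, 2 and 8 are rats 32, 30 and 44. The 8 minimal response males are numbered 2 to 17, and the controls, numbered in a series of their own, 2 to 10. The labels do not say what the numbers mark (an order of handling, a litter or a delivery), and the part of the numbering in the results was not tested.

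Leaving out single arrays changed the count of calls. Without replicate 1, 105 probes were called (67 higher, 38 lower). Without replicate 2, 302 were called (194 higher, 108 lower), and without replicate 8, 273 (158 higher, 115 lower). Leaving out any single one of replicates 3 to 7 left 0 calls. Of the control arrays, leaving out replicate 6 gave 28 calls, replicate 7 gave 47 and replicate 8 gave 3, and leaving out any of the other 5 gave 0. The count of 0 therefore rests on single arrays of both groups.

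Regulators of G-protein signalling included genes on which the extreme response arrays divided. These proteins shorten signals from G-protein-coupled receptors by speeding the hydrolysis of GTP on the G-protein alpha subunit. Rgs18, a member abundant in platelets and other blood cells, had log2 levels of 5.21, 4.52, 6.12, 6.62, 6.52, 6.69, 6.55 and 4.57 on extreme response replicates 1 to 8, against 4.72, 4.81, 5.05, 4.41, 4.99, 5.26, 4.95 and 4.67 on control replicates 1 to 8. Of these arrays, 3 to 7 were above every control array, while 1, 2 and 8 were inside the control range. The mean was 5.85 ± 0.94 at extreme response and 4.86 ± 0.26 in controls (SD, n = 8 each), a log2 difference of 0.99 ± 0.33 (SE; limma adjusted p = 0.13). Detection above background was reached on 6 extreme response and 4 control arrays, so the low values of Rgs18 sit near background. Minimal response males, compared with the same controls, had 6.26 to 7.16.

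Rgs2, which acts mainly on Gq and is a fast-responding member of the family, ranged from 6.12 through a median of 7.28 to 7.82 at extreme response, and from 5.44 through 6.07 to 6.81 in controls. For Rgs2, replicates 3 to 7 (7.24 to 7.82) were above every control array, and replicates 1, 2 and 8 were not. Its log2 difference was 0.98 ± 0.25 (limma adjusted p = 0.0621). Among the 14 tested regulators of G-protein signalling, 4 were higher and 1 lower at an unadjusted p below 0.05 (35.7%, against 15.3% of all probes). Their median difference was 0.009, and -0.036 to 0.053 on leaving out single arrays. Over all probes the median difference was -0.006. The inhibitory alpha subunit Gnai3 and the gamma subunit Gng10 had log2 differences of 0.67 ± 0.23 and 0.63 ± 0.24 (limma adjusted p = 0.133 and 0.183). Each of these 2 genes had 5 extreme response arrays above and 1 or more below the whole control range.

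Cxcr4, the receptor for the chemokine CXCL12 that holds leukocytes in the bone marrow and is induced by glucocorticoids in lymphocytes, ranged from 6.62 (median 8.09) to 9.59 at extreme response and from 6.2 (median 7.16) to 8.38 in controls. The groups overlapped. Its log2 difference was 0.98 ± 0.31 (limma adjusted p = 0.114).

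Cacybp, a calcyclin-binding protein that links S100 proteins to ubiquitin ligation, had levels from 5.33 (median 6.83) to 7.42 at extreme response, against 4.83 (median 5.51) to 5.98 in controls. Replicates 3 to 7 lay at 6.81 to 7.42, above all controls, and replicates 1, 2 and 8 at 5.84, 5.33 and 5.66. The log2 difference was 1.04 ± 0.24 (limma adjusted p = 0.0621). Cacybp was detected above background on 8 extreme response and 5 control arrays, so the control levels sit near background.

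**Figure D2:**
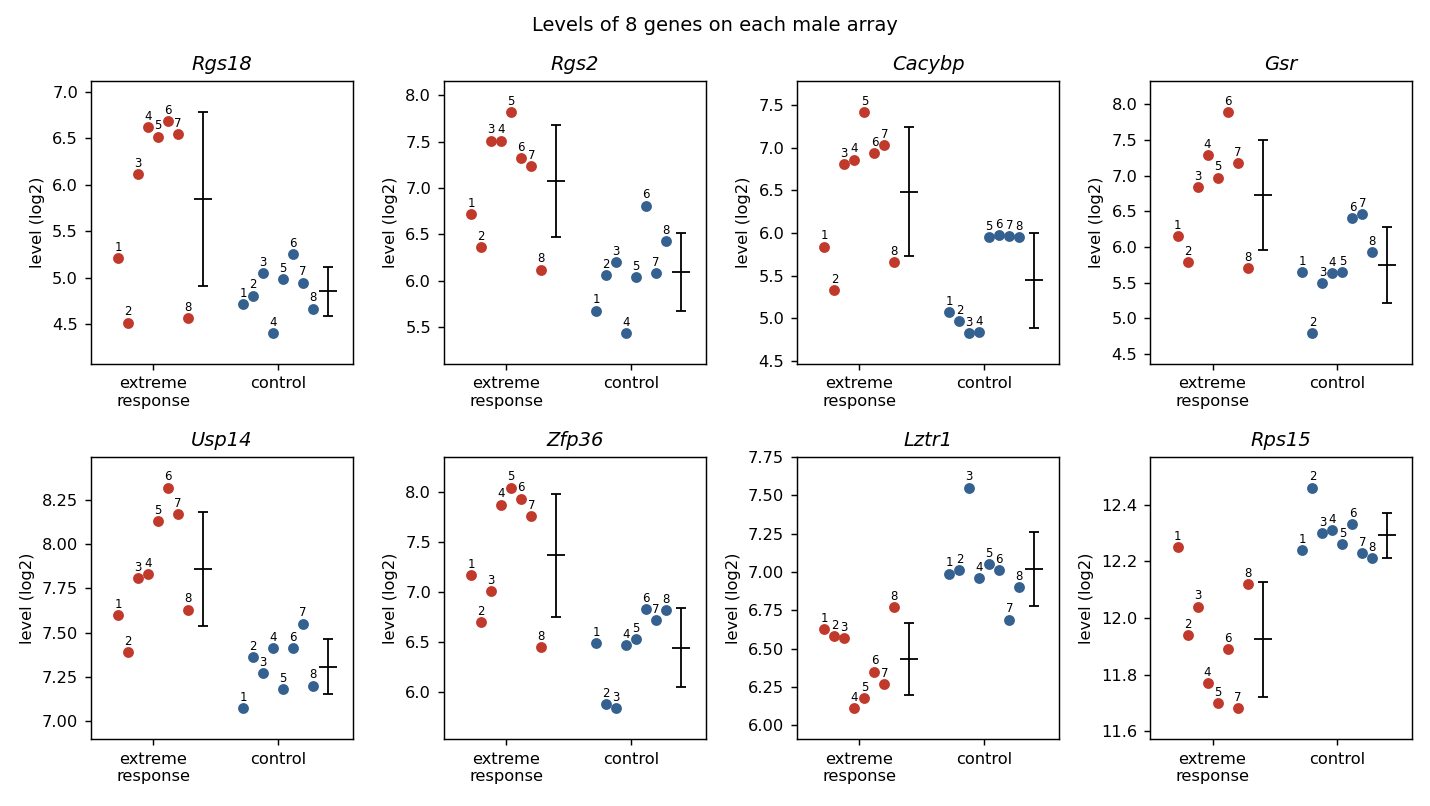
Log2 levels (vertical axes, a separate scale for each gene) of 8 genes on the 8 extreme response and 8 control arrays, each point an array numbered by replicate, with mean and SD as bars. Rgs18, Rgs2, Cacybp and Gsr have extreme response replicates 3 to 7 above every control array and 1, 2 and 8 among the controls; Lztr1 and Rps15 have 7 of 8 extreme response arrays below every control array.

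The promoters of Rgs18, Rgs2 and Cacybp are shown as examples of genes whose levels divided the extreme response arrays at the same place. The same arrays lay above every control array on 204 probes, among them those of Gsr, Klf4, Cat and Hnrnpf. That division therefore does not single out these 3 genes. All 3 genes lie on the minus strand of rat chromosome 13. The windows run from 250 bases before to 50 bases after the annotated start, written 5′ to 3′ from RefSeq on build GRCr8, at chr13:59066293-59066592 for Rgs18, chr13:58352617-58352916 for Rgs2 and chr13:74981190-74981489 for Cacybp. Capitals mark TGACG or its reverse complement CGTCA, the core of the cAMP response element, and GAANNTTC, a pair of facing heat shock element units, each searched on both strands.
Rgs18: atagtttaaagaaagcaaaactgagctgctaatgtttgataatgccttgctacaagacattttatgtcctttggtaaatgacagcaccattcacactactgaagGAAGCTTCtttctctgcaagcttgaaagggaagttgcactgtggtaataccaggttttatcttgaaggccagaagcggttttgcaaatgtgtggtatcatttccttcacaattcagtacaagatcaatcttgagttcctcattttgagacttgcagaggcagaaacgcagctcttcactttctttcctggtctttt
Rgs2: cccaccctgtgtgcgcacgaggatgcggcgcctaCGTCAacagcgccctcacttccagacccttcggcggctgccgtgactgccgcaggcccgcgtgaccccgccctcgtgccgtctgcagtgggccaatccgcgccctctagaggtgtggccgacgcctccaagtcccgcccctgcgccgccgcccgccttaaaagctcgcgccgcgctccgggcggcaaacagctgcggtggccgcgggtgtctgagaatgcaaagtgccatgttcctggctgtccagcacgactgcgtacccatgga
Cacybp: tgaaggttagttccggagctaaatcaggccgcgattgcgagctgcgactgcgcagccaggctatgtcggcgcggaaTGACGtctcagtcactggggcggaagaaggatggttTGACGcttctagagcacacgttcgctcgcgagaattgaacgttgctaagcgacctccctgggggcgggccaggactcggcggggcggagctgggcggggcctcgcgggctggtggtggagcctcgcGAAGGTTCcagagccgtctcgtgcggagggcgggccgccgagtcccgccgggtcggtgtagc
TGACG on either strand was present in Rgs2 (1 match) and Cacybp (2 matches), and in 21.2% of 33469 promoters of this length. GAANNTTC was present in Rgs18 and Cacybp (1 match each) and in 8.59% of the promoters. A match in letters does not show that a factor binds there.

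Heat shock proteins and cochaperones, which refold damaged proteins and also fold the glucocorticoid receptor, were represented by 14 tested genes, of which 6 were higher and 1 lower at an unadjusted p below 0.05 (50%, against 15.3% of all probes). Their median difference was 0.327, against -0.006 over all probes. The cochaperone Dnajb6 ranged from 8.53 (median 8.95) to 10.32 at extreme response and from 8.30 (median 8.72) to 8.99 in controls, with only replicates 4, 6 and 7 above the controls. It differed by 0.45 ± 0.16 (limma adjusted p = 0.141). Dnajb4, another cochaperone of the Hsp70 machine, differed by 0.49 ± 0.18 (limma adjusted p = 0.166), and Hspa5, the chaperone of the endoplasmic reticulum, by 0.27 ± 0.10 (limma adjusted p = 0.155). As a list mean relative to the control mean, replicates 5, 6 and 7 were above every control array at 0.621, 0.551 and 0.375, and replicate 2 was below every control array at -0.274. Usp14, a deubiquitinase bound to the proteasome, was among the better separated genes, with 7 of 8 extreme response arrays above every control. Usp14 ranged from 7.39 (median 7.82) to 8.32 at extreme response and from 7.07 (median 7.32) to 7.55 in controls, a log2 difference of 0.55 ± 0.13 (limma adjusted p = 0.0621).

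Of 15 tested genes listed as induced by glucocorticoids, 6 were higher and 2 lower at an unadjusted p below 0.05, against 7.78% higher and 7.48% lower over all probes. The median difference was 0.127, with 13 differences above 0. It was 0.261 without extreme response replicate 2, 0.078 without extreme response replicate 4 and 0.059 without control replicate 2. Zfp36 encodes tristetraprolin, which destabilises cytokine mRNAs. It ranged from 6.45 (median 7.46) to 8.04 at extreme response and from 5.84 (median 6.51) to 6.83 in controls. For Zfp36, replicates 1, 3, 4, 5, 6 and 7 were above every control array, and the log2 difference was 0.92 ± 0.26 (limma adjusted p = 0.0982). Anxa1, an anti-inflammatory annexin, ranged from 7.55 (median 7.66) to 8.27 at extreme response, against 7.05 (median 7.19) to 7.58 in controls, with 7 of 8 arrays above every control. Its log2 difference was 0.58 ± 0.18 (limma adjusted p = 0.115). Dusp1, a phosphatase that switches off MAP kinases, had 7.75 (median 9.02) to 9.56 at extreme response and 7.80 (median 7.94) to 8.95 in controls. Dusp1 differed by 0.73 ± 0.29 (limma adjusted p = 0.198). Here replicates 4 to 7 were above every control and replicate 8 was below them all.

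The other glucocorticoid markers differed in both directions. Fkbp5, a cochaperone that lowers the hormone affinity of the glucocorticoid receptor, had 7.22 (median 7.70) to 8.25 at extreme response, against 7.80 (median 8.05) to 8.78 in controls. Its log2 difference of -0.32 ± 0.16 was below 0 (limma adjusted p = 0.325). Tsc22d3, the glucocorticoid-induced leucine zipper, differed by 0.25 ± 0.15 (limma adjusted p = 0.437), and Per1, a clock gene with a glucocorticoid response element, by 0.13 ± 0.19 (limma adjusted p = 0.794). Sgk1, a kinase induced by glucocorticoids in many tissues, differed by 0.06 ± 0.16 (limma adjusted p = 0.9), and the sign of Sgk1 turned without replicate 5 or replicate 6. Klf13 had a difference of -0.47 ± 0.19 (limma adjusted p = 0.195). Among 8 tested genes of the receptor, its chaperones and its cofactors, 0 were higher and 4 lower at an unadjusted p below 0.05 (50%, against 15.3% of all probes), with a median difference of -0.233. The corepressor Ncor1 had the smallest p of the 8, with 6.91 ± 0.42 at extreme response and 7.64 ± 0.53 in controls (SD, n = 8 each).

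Feedback brakes on MAP kinase and cytokine signalling limit how long a stimulus acts on a leukocyte. Of 11 tested genes, 5 were higher and 0 lower at an unadjusted p below 0.05 (45.5%, against 15.3% of all probes), and the median difference was 0.315. The list mean was 0.267, 0.065, 0.185, 0.493, 0.710, 0.626, 0.529 and 0.1 above the control mean on extreme response replicates 1 to 8, against -0.256 to 0.250 on control arrays. Replicates 1, 4, 5, 6 and 7 were above every control array. Dusp6, which dephosphorylates ERK, differed by 0.65 ± 0.23 (limma adjusted p = 0.15), and Nfkbia, the inhibitor that holds NF-kB in the cytoplasm, by 0.57 ± 0.23 (limma adjusted p = 0.203).

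Immediate early genes respond to a stimulus within minutes, before new protein is made. Of 17 tested, 3 were higher and 1 lower at an unadjusted p below 0.05 (23.5%, against 15.3% of all probes). The median difference was 0.067, with the lowest value of 0.008 without extreme response replicate 2 and the highest of 0.092. Klf4, a zinc finger factor of monocytes, was higher by 0.69 ± 0.20 (limma adjusted p = 0.101), with replicates 3 to 7 above every control array. Ier2, an early nuclear gene, differed by -0.63 ± 0.21 (limma adjusted p = 0.131). It ranged from 4.67 (median 6.07) to 6.71 at extreme response and from 6.36 (median 6.56) to 6.98 in controls, and replicate 6 alone was at 4.67. Fos, the activator protein component, ranged from 4.90 (median 6.95) to 8.04 at extreme response and from 6.99 (median 7.38) to 8.04 in controls (difference -0.58 ± 0.41; limma adjusted p = 0.524).

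Interferon-stimulated genes answer virus-induced cytokines, and NF-kB targets answer inflammatory ones. Of 22 interferon-stimulated genes, 0 reached an unadjusted p below 0.05, against 15.3% of all probes, and the median difference was -0.056 (-0.089 to -0.009 on leaving out single arrays). Of 18 inflammation and NF-kB genes, 2 were higher and 0 lower (11.1%, near the share of all probes). The median was 0.079, and 0.029 without extreme response replicate 1 and 0.146 without extreme response replicate 6.

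Genes of defence against oxidants were divided among themselves, with 5 higher and 1 lower at an unadjusted p below 0.05 of 23 tested (26.1%, against 15.3% of all probes). The median difference was -0.019, and -0.047 to 0.066 on leaving out single arrays. Gsr, the reductase that regenerates glutathione, ranged from 5.71 (median 6.90) to 7.89 at extreme response and from 4.80 (median 5.65) to 6.46 in controls. Replicates 3 to 7 were above every control array of Gsr, and the log2 difference was 0.97 ± 0.23 (limma adjusted p = 0.0621). Prdx3, a mitochondrial peroxiredoxin, differed by 0.59 ± 0.17 with 6 of 8 arrays above every control (limma adjusted p = 0.097). Catalase (Cat) differed by 0.74 ± 0.23 with 5 of 8 above (limma adjusted p = 0.115). Sod2, the mitochondrial superoxide dismutase, had the widest values of these, from 6.39 (median 8.41) to 9.52 at extreme response, against 6.81 (median 7.08) to 8.18 in controls. For Sod2, replicates 3 to 7 were above every control and replicates 2 and 8 below every control. Its log2 difference was 0.76 ± 0.36 (limma adjusted p = 0.299).

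RNA splicing factors had 7 genes higher and 1 lower at an unadjusted p below 0.05 of 29 tested (27.6%, against 15.3% of all probes). The median difference was 0.148, and 0.093 without extreme response replicate 7 and 0.078 without control replicate 2. The hnRNP proteins Hnrnpa2b1 and Hnrnpf, which bind nascent transcripts, differed by 0.74 ± 0.22 and 0.65 ± 0.20 (limma adjusted p = 0.107 and 0.115). On both genes, replicates 3 to 7 were above every control array and replicate 2 was below every control array. The list mean of the splicing factors was above every control array on replicates 3 to 7 and below every control array on replicate 2.

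**Figure D3:**
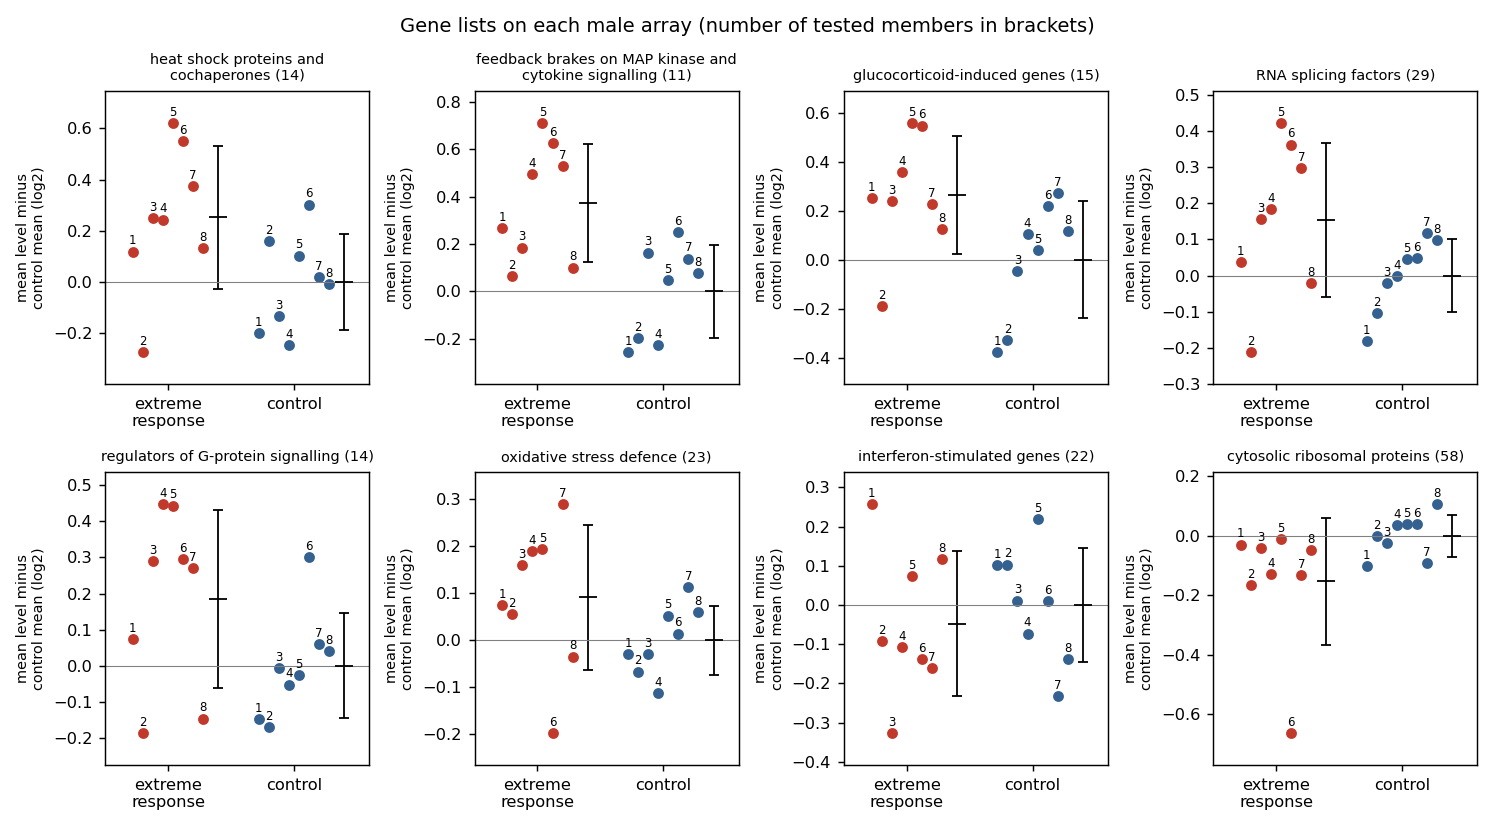
Mean log2 level of 8 gene lists minus the mean of the 8 control arrays (vertical axes), for the 8 extreme response and 8 control arrays, each point an array numbered by replicate, with mean and SD as bars and the number of tested genes in brackets. Splicing factors have replicates 3 to 7 above every control array, and cytosolic ribosomal proteins have replicate 6 at -0.664.

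Some of the best separated genes lay below the controls. Lztr1, an adaptor that directs RAS proteins to ubiquitination, had 6.63, 6.58, 6.57, 6.11, 6.18, 6.35, 6.27 and 6.77 on extreme response replicates 1 to 8, against 6.99, 7.01, 7.55, 6.96, 7.05, 7.01, 6.69 and 6.90 on control replicates 1 to 8. Every extreme response array but replicate 8 was below every control array. The log2 difference of Lztr1 was -0.59 ± 0.12 (95% interval -0.84 to -0.34; limma adjusted p = 0.0621). Dvl1, a cytoplasmic relay of Wnt signals, differed by -0.77 ± 0.17, and Phkg2, a catalytic subunit of phosphorylase kinase, by -0.62 ± 0.14 (limma adjusted p = 0.0621 for both). Unlike these 3, Fut4, which builds the Lewis x sugar on leukocytes, was on the other side at 0.68 ± 0.14, detected on 7 extreme response and 2 control arrays. Lztr1, Fut4, Dvl1 and Phkg2 had the smallest p of all probes with a symbol, and so were named after their values were seen.

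The list of 23 fatty acid oxidation and lipid genes was near the rest of the probes, with 1 higher and 2 lower at an unadjusted p below 0.05 (13%, against 15.3% of all probes). Its median difference was 0.004, and -0.038 to 0.027 on leaving out single arrays. Adipor2, an adiponectin receptor, ranged from 5.64 (median 6.76) to 7.02 at extreme response and from 6.79 (median 7.32) to 7.80 in controls, a difference of -0.77 ± 0.19 (limma adjusted p = 0.0621). Acaa2, the mitochondrial thiolase that ends each round of fatty acid oxidation, ranged from 6.44 (median 6.71) to 7.16 at extreme response, against 6.89 (median 7.35) to 7.70 in controls. Here 7 of 8 extreme response arrays, replicates 2 to 8, were below every control array, and the difference was -0.63 ± 0.18 (limma adjusted p = 0.0988).

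Among ribosomal and respiratory genes, single members were separated by small differences, and some arrays had a ribosomal list mean below the controls. Rps15, a small-subunit ribosomal protein, was at 11.68 (median 11.91) to 12.25 at extreme response and 12.21 (median 12.28) to 12.46 in controls, with 7 of 8 arrays below every control and a difference of -0.37 ± 0.10 (limma adjusted p = 0.0788). Of 58 cytosolic ribosomal protein genes, 0 were higher and 4 lower at an unadjusted p below 0.05 (6.9%, against 15.3% of all probes), and the median difference was -0.055. The list mean was below every control array on replicates 2, 4, 6 and 7, at -0.167, -0.130, -0.664 and -0.132 relative to the control mean. The lowest control array was at -0.101. On replicate 6, 7 ribosomal protein probes were more than 2 log2 units below each of the other 15 arrays, so its mean does not describe the whole list. Ndufb3, a subunit of respiratory complex I, was at 8.35 (median 8.58) to 8.78 at extreme response and 8.00 (median 8.30) to 8.39 in controls, a difference of 0.35 ± 0.09 (limma adjusted p = 0.0709). Among 52 oxidative phosphorylation subunits, 6 were higher and 8 lower (26.9%, against 15.3% of all probes), with a median difference of 0.006 (-0.026 to 0.028 on leaving out single arrays). Birc2, a ubiquitin ligase that blocks cell death signals, differed by 0.66 ± 0.18 with 7 of 8 arrays above every control (limma adjusted p = 0.0889).

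Some blood cell types had differences mostly on 1 side, and others were mixed. Below 0 were 6 of 7 platelet, 3 of 4 B cell and 2 of 2 eosinophil, basophil and mast cell markers. Above 0 were 4 of 4 monocyte markers, and NK and cytotoxic markers had 3 above and 2 below. Of the genes in these 5 lists, 0 reached an unadjusted p below 0.05. Over all probes, 4597 differences were above 0 and 4819 below. Slc4a1, the anion exchanger of the red cell membrane, had 7.82 (median 9.18) to 10.20 at extreme response and 7.44 (median 8.45) to 8.87 in controls, a difference of 0.85 ± 0.26 (limma adjusted p = 0.108). Of the 5 tested erythroid markers, 2 differences were above 0 and 3 below, with a median of -0.019 (-0.134 to 0.062 on leaving out single arrays). The neutrophil genes Cxcr2, a chemokine receptor, and Mmp8, a granule collagenase, differed by 0.57 ± 0.21 and 0.58 ± 0.23 (limma adjusted p = 0.165 and 0.203). Of the 9 neutrophil markers, 5 differences were above 0 and 4 below, and 2 reached an unadjusted p below 0.05 (22.2%, against 15.3% of all probes). Their median was 0.196, and 0.017 without extreme response replicate 2, 0.034 without extreme response replicate 7, 0.050 without control replicate 4 and 0.306 without extreme response replicate 6. The 15 genes of the T cell receptor complex and lineage had 1 higher and 4 lower at an unadjusted p below 0.05 (33.3%, against 15.3% of all probes). Of their differences, 3 were above 0 and 12 below, with a median of -0.124 (-0.149 to -0.086 on leaving out single arrays). Lck, the kinase that starts T cell receptor signals, averaged 10.09 ± 0.26 at extreme response and 10.43 ± 0.21 in controls (SD, n = 8 each). Within the extreme response group, the platelet sum was 15.70, 15.53 and 15.64 on replicates 1, 2 and 8. On replicates 3 to 7 it was 15.10, 15.32, 15.21, 14.25 and 15.16. The platelet sum thus divided these arrays at the same place as the selected probes above, while the other marker sums did not. The part of cell composition in the differences above was not tested beyond a fit with marker sums as covariates. That fit made 0 calls, as did the fit without covariates, so the count of calls cannot show a part of composition. An unadjusted p below 0.05 was reached by 1059 probes with the covariates and by 1437 without them.

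The spread among the extreme response arrays differed little from that among the controls over all probes. By the median, which group was wider changed without extreme response replicate 6. The standard deviation over the 8 arrays had a median of 0.292 at extreme response and 0.273 in controls, and 5331 probes (56.6%) were wider at extreme response. Without extreme response replicate 6 the median was 0.263 and 4540 probes (48.2%) were wider. All 8 control arrays were kept in that comparison. A standard deviation above 1 was found on 123 probes at extreme response and on 47 in controls, and on 80 at extreme response without replicate 6. A test of the absolute deviations across all probes called 0 of 9416 (0%). At an unadjusted p below 0.05, 970 probes (10.3%) differed in spread, of which 677 (7.19%) were wider and 293 (3.11%) narrower at extreme response.

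The lowest adjusted p for spread was 0.163. Rgs18 was among the probes with the smallest p, with a standard deviation of 0.936 at extreme response against 0.263 in controls. Morc3, a nuclear zinc finger ATPase, had 0.324 at extreme response against 0.0811 in controls, and Wdr46, a nucleolar protein, 0.474 at extreme response against 0.121 in controls. The opposite was found for Med8, a Mediator subunit, with 0.317 at extreme response and 0.837 in controls, and for Rabggta, which attaches prenyl groups to Rab proteins, with 0.121 at extreme response and 0.470 in controls.

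Several gene lists had a higher median standard deviation at extreme response also without replicate 6. Interferon-stimulated genes had a median standard deviation of 0.351 at extreme response (0.356 without replicate 6) and 0.262 in controls, and 18 of 22 were wider, or 17 without replicate 6. Over all 6673 tested symbols, 3856 were wider, or 3286 without replicate 6. Oxidative stress defence genes had 0.444 at extreme response (0.341 without replicate 6) and 0.291 in controls, with 19 of 23 wider, or 17 without replicate 6. Splicing factors had 0.402 at extreme response (0.335 without replicate 6) and 0.299 in controls, with 23 of 29 wider, or 21 without replicate 6. Glucocorticoid-induced genes had 0.480 at extreme response (0.433 without replicate 6) and 0.351 in controls, with 12 of 15 wider, or 10 without replicate 6. The feedback brakes had a median of 0.341 at extreme response (0.262 without replicate 6) and 0.351 in controls. Skeletal muscle genes had 0.641 at extreme response and 1.88 in controls, and 0 of 7 were wider at extreme response. Their summed level was 14.05 on control replicate 2 and 7.91 to 10.27 on the other control arrays. The spread of the muscle genes without that array was not computed. None of the medians in this paragraph was tested.

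Whole arrays were compared by their root mean square deviation from the mean of their own group. It was 0.315, 0.485, 0.307, 0.329, 0.327, 0.605, 0.309 and 0.339 log2 units on extreme response replicates 1 to 8, against 0.382, 0.415, 0.331, 0.327, 0.275, 0.321, 0.320 and 0.296 on control replicates 1 to 8. Extreme response replicates 6 and 2 were the farthest from their group, and the other 6 lay within the control range. The mean was 0.377 ± 0.109 at extreme response and 0.333 ± 0.045 in controls (SD, n = 8 each), a difference of 0.0438 (two-sided exact permutation test over 12870 splits, p = 0.354). Without replicate 6 the difference was 0.0045 (exact permutation p = 0.872). That removal keeps the farthest control array, replicate 2. Without extreme response replicate 6 and control replicate 2 together, the difference was 0.0185. On the first principal component of the 16 arrays, which held 29.1% of the variance, replicates 3 to 7 scored 8.0, 9.3, 22.5, 54.6 and 22.2 and replicates 1, 2 and 8 scored -6.2, -18.7 and -10.4. Control arrays scored -18.8 to 3.9.

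**Figure D4:**
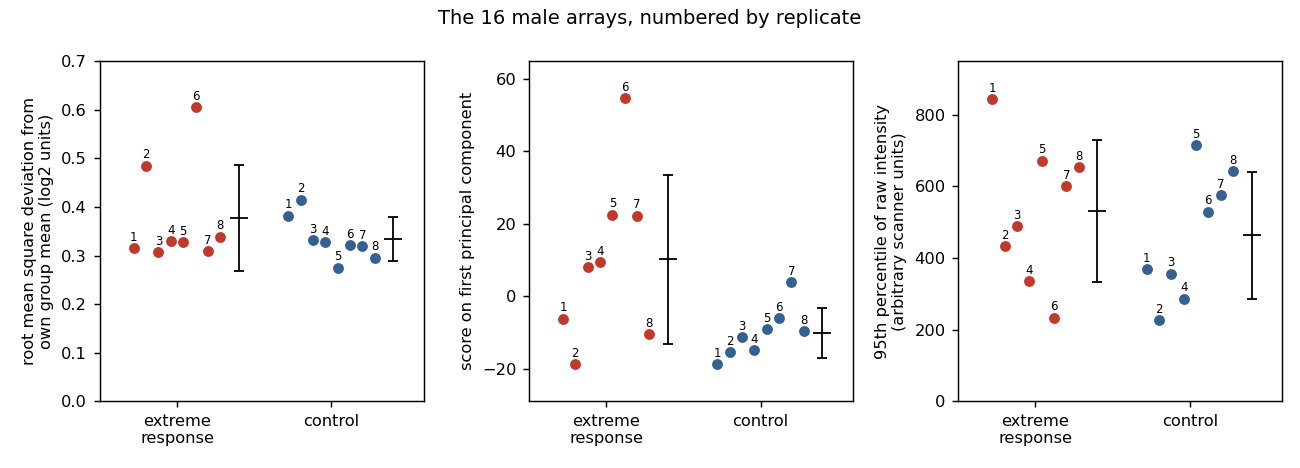
Root mean square deviation from the group mean in log2 units (left), score on the first principal component (middle) and 95th percentile of raw intensity in scanner units (right) for the 8 extreme response and 8 control arrays, each point an array numbered by replicate, with mean and SD as bars. Extreme response replicate 6 has the largest deviation (0.605) and score (54.6) and a brightness of 234, near the lowest control array at 228.

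Extreme response replicate 6 was set apart by a small number of bright probes that were low on it alone. On 55 probes it lay more than 2 log2 units below each of the other 15 arrays, and on 0 probes as far above them. No other extreme response or control array lay so far below the rest on more than 1 probe. On these 55 probes, 42 with a symbol, the median control level was 11.71, against 5.58 over all tested probes, and 47 of the 55 exceeded 10, as did 582 of all probes. Rps10, a ribosomal protein, had 7.07 on replicate 6 and 13.59 to 13.99 on the other 15 arrays. Use1, a SNARE protein of the endoplasmic reticulum, had 4.42 against at least 10.58. Mif, a cytokine that opposes glucocorticoid action, had 4.93 against at least 9.93. Iscu, the scaffold on which iron-sulfur clusters form, had 7.02, and Alas2, the erythroid enzyme that begins heme synthesis, had 9.05.

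These low probes decided some group values. The difference of Alas2 was -0.68 ± 0.37 (limma adjusted p = 0.385) with replicate 6 and -0.05 without it. The array was the second dimmest by its 95th percentile of raw intensity, and 6274 of 22523 probes were detected on it, against 7226 to 7929 on the other extreme response arrays and 6202 to 8028 on control arrays. On 49 of the 55 probes replicate 6 was still detected above background. Their part in the other results was not tested apart from the rest of the array. Without the array there were 0 calls, as with it, so the count of calls cannot show its influence. Probes at an unadjusted p below 0.05 numbered 993 without it and 1437 with all arrays. Leaving out any other single array gave 1157 to 1753 such probes.

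**Figure D5:**
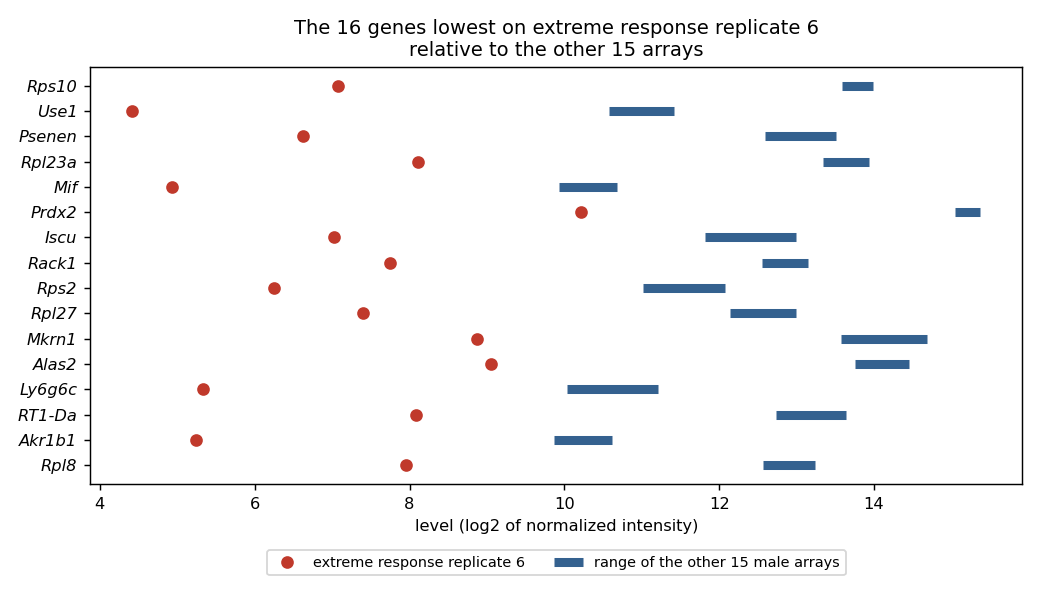
Log2 level (horizontal axis) of the 16 genes farthest below the other arrays on extreme response replicate 6 (red point) beside the range over the other 15 male extreme response and control arrays (blue bar). Rps10 is at 7.07 on replicate 6 and at 13.59 to 13.99 on the other 15 arrays.

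The largest standard deviations among the extreme response arrays belonged to genes that switched between background and high levels in both groups. Bpifa2, a protein that salivary glands secrete, had 12.99, 12.67, 4.45, 13.98, 4.42, 4.33, 9.72 and 12.08 on extreme response replicates 1 to 8, against 14.24, 11.28, 14.88, 12.38, 12.19, 12.51, 4.66 and 4.76 on control replicates 1 to 8. Dnase1, a secreted nuclease, and Amy1, salivary amylase, were at 4.64 or below on the same arrays as Bpifa2, which are extreme response replicates 3, 5 and 6 and control replicates 7 and 8. None of them marks a blood cell. RT1-A2, a class I antigen of the rat major histocompatibility complex, had 4.54 and 4.46 on extreme response replicates 2 and 5 and 4.82, 4.6 and 4.61 on control replicates 2, 6 and 8, and 10.27 to 11.33 on the other 11 arrays. The levels of RT1-A2 and of the salivary genes did not divide the arrays into replicates 3 to 7 and the rest. Skeletal muscle genes varied more among controls. Ckm, muscle creatine kinase, was at 4.87 (median 5.90) to 8.47 at extreme response and 5.07 (median 8.30) to 12.38 in controls. The difference was -1.84 ± 0.68 (limma adjusted p = 0.165). The value of 12.38 was that of control replicate 2 alone, and the next highest control array was at 8.66.

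The minimal response males are set beside these values because they share the controls. In that comparison 1396 of 9416 probes were called (14.8%), 764 higher (8.11%) and 632 lower (6.71%) at minimal response. The log2 difference from control of Rgs18 was 0.99 at extreme and 1.79 at minimal response, that of Cxcr4 0.98 and 1.76, and that of Gsr 0.97 and 1.59. Dusp1 differed by 0.73 at extreme and 1.62 at minimal response, Nfkbia by 0.57 and 1.26, and Zfp36 by 0.92 and 1.26. Each of these 6 values at minimal response passed the test. Lztr1 differed by -0.59 at extreme and -0.72 at minimal response, and Acaa2 by -0.63 and -1.09. Since both comparisons subtract the same 8 control arrays, their likeness is not a result.

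Extreme against minimal response, which does not use the controls, called 13 probes (0.138%), 10 higher (0.106%) and 3 lower (0.0319%) at extreme response. Pih1d1, a scaffold that joins chaperones to client complexes, was higher by 0.75 ± 0.17. Psmb6, a catalytic subunit of the proteasome, was higher by 0.53 ± 0.11, and Trappc1 and Stx8, which serve vesicle transport, by 0.51 ± 0.11 each. Saraf, a brake on store-operated calcium entry, was lower (-0.52 ± 0.12). The limma adjusted p was 0.0445 for each of these 5 genes. The count was sensitive to the arrays used and lay between 0 and 92 when single arrays were left out.

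On some probes the difference between extreme response and control differed between males and females. The labels number the females (F) and males (R) in separate series, so sex cannot be told apart from other differences between these series. Of 9416 probes, 457 (4.85%) differed between males and females in it, 222 with a higher value in males (2.36%) and 235 with a lower one (2.5%). Rgs2 differed by 0.98 ± 0.25 in males and by -1.31 in females, an interaction of 2.29 ± 0.36 (limma adjusted p = 0.000179). These calls depended on 4 female control arrays, without which 0 probes were called. With cell marker sums as covariates, 1 probe was called.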

How the data were processed

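Whole-blood RNA of male and female rats was measured on Illumina rat bead arrays, 1 rat per array. Per the labels' protocols, RNA was extracted from PAXgene tubes, reduced for globin transcripts and labelled as biotin cRNA. The authors deposited raw bead intensity per probe, a detection p-value per probe, and a table of log2 values. The deposited log2 values equalled quantile-normalized log2 raw intensity without background correction, with a largest difference of 0.000000005 and a median of 6.593 in each column. The annotation release is not given in the sources used here.

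Background was corrected with normexp in limma 3.58.1 (R 4.3.3), taking the negative controls implied by the detection p-value and adding an offset of 16. Quantile normalization over 46 arrays followed, and log2 was taken last. Female control replicate 2 carried no signal and was left out. The 9416 probes with a detection p below 0.05 on at least 7 arrays were tested. A linear model with 1 mean per group (6 groups, 40 residual degrees of freedom) was fitted with empirical Bayes moderation, with Benjamini-Hochberg adjustment over all tested probes and calls at 0.05. Differences are in log2 units with the standard error. The spread was tested with limma on absolute deviations from the group mean, and array distances with a two-sided exact permutation test. The scripts were tested on simulated data.

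Probe symbols came from the platform annotation and were updated to RefSeq symbols where the gene identifier matched. Of all probes, 13793 had 1 symbol and 8730 none. Named genes were list members with the smallest p, genes fixed by name, and the genes with the smallest p or largest spread. Where a symbol had several probes, the probe of the highest mean was used. The members, lists and alternatives were chosen with earlier results of these data known. The number of arrays limits the precision.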

Additional observations from a re-analysis of the deposited data

Results flagged for a closer look

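Several values lay apart from the rest of their group of 8 arrays, by a gap test on the farthest array (Dixon's test at the 95% level). Of 118 groups tested, 7 were past it, where chance gives about 1 in 20 for genes not chosen by their values. Extreme response replicate 6 was the low array for Rps10 (7.07), Iscu (7.02), Mif (4.93), Alas2 (9.05) and Ier2 (4.67). Rps10, Iscu and Mif were named because they were low on that array, and Alas2 is among the same 55 probes, so these 4 values are a description and not a test. Control replicate 3 was the high array for Lztr1 (7.55), and control replicate 6 was the low array for Psmb6 (10.05).

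Other genes had a difference between extreme response and control that itself differed between males and females (limma interaction, adjusted p below 0.05), as did 457 of 9416 probes in all (4.85%), 222 higher and 235 lower in males. The male minus female value was largest in size for the muscle genes Acta1 (-4.79) and Ckm (-4.70). Ckm had a log2 difference of -1.84 in males and 2.86 in females. It was 2.59 for Dusp1 (0.73 in males, -1.86 in females), 2.43 for Zfp36 (0.92 in males, -1.51 in females), 1.97 for Dusp6 and 1.27 for Nfkbia. It was 1.52 for Anxa1 and -1 for Fkbp5. It was 2.29 for Rgs2 (0.98 in males, -1.31 in females), 1.81 for Cxcr4, 1.23 for Cxcr2 and 1.55 for Klf4. The remaining values were 1.45 for Gng10, 1.15 for Gnai3, 1.17 for Cat, 1.14 for Cacybp, 0.92 for Birc2, 0.86 for Fut4 and 0.49 for Hspa5. Without 4 female control arrays that stood apart in earlier results, 0 probes were called, and 1 with cell marker sums as covariates.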

How the results depend on the processing

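Over 30 alternatives, 44 of 46 recomputed gene differences between extreme response and control kept their sign in males, and 9 of 31 settings, the reported one included, made any call. Calls rose above 0 without 4 female control arrays (22), with array weights (149), with brightness as a covariate (16), and on leaving out single arrays (0 to 302). Sgk1 was -0.11 with marker covariates, -0.04 without extreme response replicate 6 and control replicate 2 together, and -0.02 to 0.15 on leaving out single arrays. Per1 was -0.05 without those 2 arrays. Other scalings, filters and array sets gave 0 calls, with 1481 probes at an unadjusted p below 0.05 on the deposited values, 824 with scaling to the 75th percentile and 684 with all 47 arrays. Leaving out extreme response replicate 6 and control replicate 2 together, chosen after seeing the data, gave 0 calls and 876 such probes. With the replicate number as a block there were 0 calls against control and 0 against minimal response. Deviations of same-numbered extreme response and control arrays correlated at -0.0433 to 0.327, with 2 of 8 pairs above 0.1. Replicates are numbered by their order in the series, so these values cannot decide whether any rats were paired.

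Against minimal response the 13 calls became 2 with 75th percentile scaling, 7 without the detection filter, 2 with the 24 male arrays alone, 0 with 47 arrays, 23 without the 4 female controls, 33 with brightness, 69 with marker covariates and 0 to 92 on leaving out single arrays, while all 5 named genes kept their sign. The 457 sex differences became 54, 9 higher and 45 lower, with 75th percentile scaling, 210 without the filter, 130 with 47 arrays (17 higher and 113 lower), 0 without the 4 female controls, 248 with array weights, 1 with marker covariates, 258 without extreme response replicate 6 and control replicate 2, and 266 to 669 on leaving out single arrays. The spread test gave 1 call on the deposited values, 1 without the filter and 0 to 7 on leaving out single arrays. The array distance difference ran from 0.0045 to 0.0578. The immediate early gene median moved to -0.043 with marker covariates. The cause of these shifts was not tested. A slide block was not run, since the headers name no slide. Low signal over background limits Rgs18, Fut4 and Cacybp.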
